A study of Canis lupus familiaris with 186 samples.

Results

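CDKN2A encodes p16INK4a and, from another reading frame, ARF. p16INK4a inhibits CDK4 and CDK6, which otherwise phosphorylate the retinoblastoma protein RB1 and release E2F transcription factors, and ARF inhibits the ubiquitin ligase MDM2. The gene is frequently deleted in osteosarcoma, often with its neighbor MTAP, and its transcript is known to accumulate in tumor cells that lack RB1. Primary tumors of the DOG2 dataset with the highest and the lowest CDKN2A level were compared across the transcriptome and for DFI, the disease-free time in days, and OSv, the survival in days. Of 186 tumors, the 46 with the highest CDKN2A level in CPM (the count scaled to a common library total) are called CDKN2A-high and the 46 with the lowest CDKN2A-low, and 94 tumors lay between them.

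All tumors were appendicular osteosarcomas of privately owned pet dogs of varied age, breed and sex, enrolled in the trials COTC021 or COTC022. The biopsies were taken before any treatment from dogs without macroscopic metastases, and the dogs then underwent amputation and received carboplatin with or without rapamycin. The GS-1 cluster, a split of the cohort by a 27-gene signature into favorable prognosis (FP) and poor prognosis (PP) dogs, was taken as the study lists it for each dog, as were DFI and OSv. The samples are bulk tissue, so fewer cells of a type and less RNA per cell cannot be told apart. Each of the 13 osteoblast markers listed for the tissue check was expressed in enough libraries to be tested, and their summed level had a median of 45675.6 CPM in the 17 tumors with most CDKN2A, 37038.5 CPM in the other 29 CDKN2A-high tumors and 56031.2 CPM in the CDKN2A-low tumors.

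CDKN2A (chromosome 11, 41337054 to 41366301 of build GSD_1.0) ranged from 0 to 121.7 CPM over the series. In the CDKN2A-high tumors it ranged from 7.48 to 121.7 CPM with a median of 19.3, from 68 to 1311 counts per library. In the CDKN2A-low tumors it ranged from 0 to 0.337 CPM with a median of 0.119, from 0 to 6 counts. These values chose the groups and were not tested. The high group was itself spread out, with 23 of its tumors under 20 CPM and 17 at 40 CPM or more. The cut at the upper end fell between 7.43 and 7.48 CPM and that at the lower end between 0.337 and 0.346 CPM, so that tumors on either side of a cut hardly differed. In the CDKN2A-low libraries, 10 had no count and 37 had 3 counts or fewer, and 3 counts corresponded to 0.132 to 0.400 CPM, so levels within this group were not resolved at this depth. Library totals had medians of 10537216 counts in the high and 12243446 counts in the low group and ranged from 6587631 to 27420857 over the series.

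**Figure D1:**
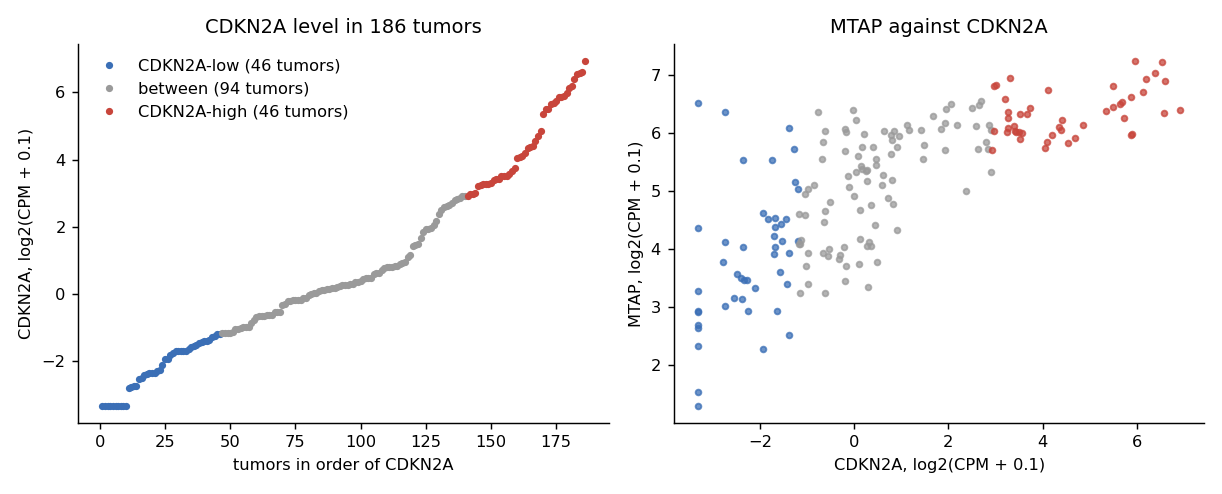
CDKN2A level of 186 tumors in rank order (left) and MTAP against CDKN2A (right), both as log2(CPM + 0.1), 1 point per tumor, colored by CDKN2A group. The 46 CDKN2A-high tumors all lie at or above 52.3 CPM of MTAP, whereas 42 of the 46 CDKN2A-low tumors lie below every one of them.

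COTC021 contributed 25 of 46 CDKN2A-high and 22 of 46 CDKN2A-low dogs (two-sided Fisher exact test, p = 0.677, adjusted p = 0.677 over 3 tests). GS-1 FP dogs made up 13 of 46 in the high and 7 of 46 in the low group (p = 0.206, adjusted p = 0.540). Libraries whose deposited name carries a doubled separator, a group of 50 deeper libraries (double-separator libraries), numbered 11 and 16 (p = 0.360, adjusted p = 0.540). None of these differences passed the test, and the share of FP dogs was the most uneven of the 3.

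Across the transcriptome, 1483 of 13421 genes (11.0%) differed between CDKN2A-high and CDKN2A-low tumors at an adjusted p under 0.05, CDKN2A itself left out. Of these, 698 (5.20%) were higher and 785 (5.85%) lower in CDKN2A-high tumors. The typical difference was small, with a median absolute log2 fold change of 0.47 among the called genes, and 58 (0.432%) also exceeded a 3-fold change, 18 (0.134%) of them higher and 40 (0.298%) lower. Within COTC021 and within COTC022 taken separately, 1481 of the 1483 called genes had the same direction. The genes were called in these same dogs, so this agreement was favored by the selection and is no replication. Tested separately, 184 genes were called within COTC021 and 147 within COTC022. No gene was called for a dependence of its difference on trial, GS-1 cluster or library name (0 genes by limma for each interaction, with 442, 639 and 893 genes at an unadjusted p under 0.05).

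The neighbor MTAP, the phosphorylase that recovers methionine from the by-product of polyamine synthesis, had the smallest p of all genes tested. MTAP (chromosome 11, 41262101 to 41314256) ends 22.8 kb before CDKN2A. It ranged from 52.3 to 150.6 CPM with a median of 78.1 in CDKN2A-high tumors, and from 2.36 to 91.1 CPM with a median of 14.3 in CDKN2A-low tumors. In 42 of 46 CDKN2A-low tumors MTAP was below every CDKN2A-high tumor, in 2 it exceeded the high group's median, and in 30 it was still at 10 CPM or more. The tumors between had a median of 40.2 CPM, and 59 of 94 were below every CDKN2A-high tumor. The log2 fold change was 2.33 (SE, standard error, 0.17, adjusted p = 1.53e-20), with 2.50 within COTC021 and 2.12 within COTC022.

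Of 137 genes annotated within 5 Mb of CDKN2A, 22 passed the filter on low counts and 6 of these were called, all higher in CDKN2A-high tumors. Over all genes 11.0% were called in either direction. The median log2 fold change was 0.23 over the 22 against 0.00 over all genes. The 4 called genes within 1 Mb, of 5 tested there, were MTAP, LOC119873925, KLHL9 and HACD4. LOC119873925 (41364682 to 41376366), an uncharacterized noncoding RNA that overlaps the end of CDKN2A, ranged from 2.62 to 15.3 CPM with a median of 5.89 in the high group and from 0 to 9.75 CPM with a median of 1.26 in the low group. Its log2 fold change was 2.44 (SE 0.19, adjusted p = 7.64e-19), but reads from overlapping genes cannot be told apart here because the strand setting of the counting was not given in the sources used here. KLHL9, a substrate adaptor of a CUL3 ubiquitin ligase that acts in mitosis, had medians of 59.8 and 36.4 CPM and a log2 fold change of 0.83 (SE 0.16, adjusted p = 0.000219). HACD4, a dehydratase of very long fatty acid synthesis, had medians of 11.9 and 6.12 CPM and a log2 fold change of 0.78 (SE 0.19, adjusted p = 0.00430).

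The median value was smaller farther from the gene. FOCAD, 701 kb before CDKN2A, stood at 0.27 (adjusted p = 0.253), and MLLT3, a chromatin reader 1076 kb before it, had 0.22 (adjusted p = 0.546). Of the 17 tested genes between 1 and 5 Mb away, 2 were called, a share near the 11.0% of all genes. They were CNTLN, a centrosome protein, with 0.41 (SE 0.12, adjusted p = 0.0136), and TEK, the angiopoietin receptor of endothelial cells, with 0.69 (SE 0.23, adjusted p = 0.0382). The value of TEK, 4152 kb after CDKN2A, was thus not far below that of HACD4. The median log2 fold change was 0.83 within 1 Mb, 0.19 between 1 and 5 Mb and 0.13 over the 337 tested genes on the remainder of the chromosome, of which 36 were called higher and 6 lower. CDKN2B, which encodes the related inhibitor p15INK4b, did not pass the filter, with a median of 0.0924 CPM and a maximum of 1.28 CPM in CDKN2A-high tumors and a median of 0 and a maximum of 0.211 CPM in CDKN2A-low tumors.

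**Figure D2:**
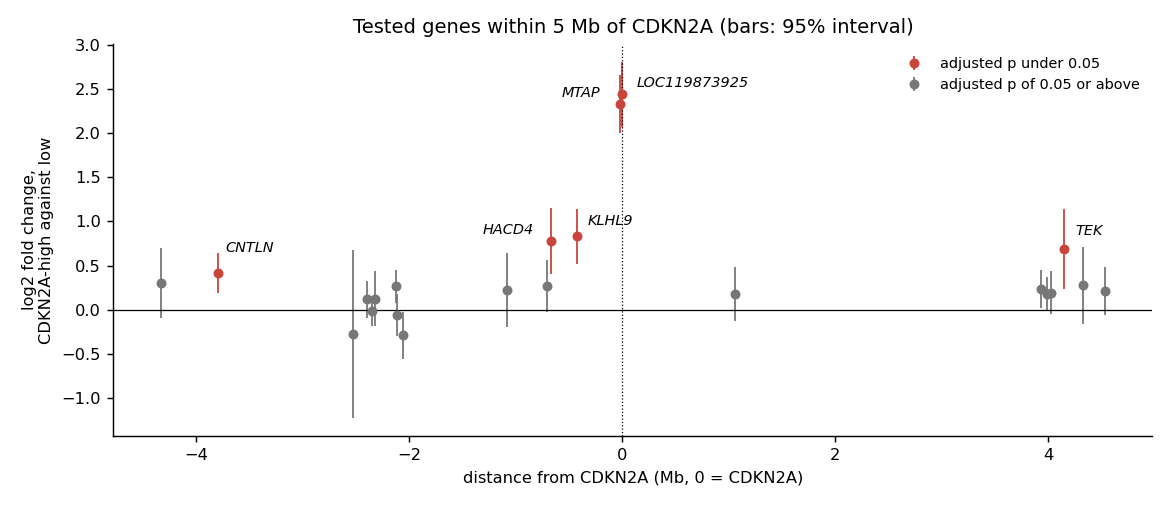
Log2 fold change of the 22 tested genes within 5 Mb of CDKN2A (y axis, CDKN2A-high against CDKN2A-low) by distance from the gene in Mb (x axis). Bars are 95% intervals, and the 6 called genes are named, with MTAP at 2.33 and LOC119873925 at 2.44 standing above the others.

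The pathway downstream of CDKN2A was examined by its roles. None of the 5 tested CDK inhibitors was called, including CDKN1A (log2 fold change -0.36, adjusted p = 0.186) and CDKN2C (0.02, adjusted p = 0.958). Of 9 G1 cyclins and kinases, only CCNE1, the cyclin that activates CDK2 at the entry to S phase, was called, with medians of 10.1 CPM in high and 7.87 CPM in low tumors and a log2 fold change of 0.40 (SE 0.13, adjusted p = 0.0326), and 1 of 9 is near the 11.0% called over all genes. The kinases inhibited by p16INK4a had -0.14 (CDK4, adjusted p = 0.433) and 0.21 (CDK6, adjusted p = 0.461), and their partner CCND1 had -0.16 (adjusted p = 0.656). RB1 ranged from 3.24 to 74.6 CPM with a median of 38.0 in CDKN2A-high tumors and from 17.9 to 115.9 CPM with a median of 40.2 in CDKN2A-low tumors, and the log2 fold change of -0.28 (SE 0.15, adjusted p = 0.206) was not called. On the ARF side, MDM2 was not called, at 0.11 on the log2 scale (adjusted p = 0.614).

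Few genes of the cell cycle downstream of RB1 differed between the groups, and the 8 that passed among E2F targets and genes of mitosis were lower in CDKN2A-high tumors. Among 47 E2F targets of DNA replication, 39 had a negative log2 fold change and 4 passed the test, each of them lower: CDC45 (-0.67, adjusted p = 0.0167) and POLE2 (-0.50, adjusted p = 0.0241), which act in the replisome, POLA2 (-0.45, adjusted p = 0.0191), a subunit of the primase complex, and RAD51AP1 (-0.64, adjusted p = 0.0241), a cofactor of recombination. Among 24 genes of mitosis, 23 had a negative value and 4 passed, again lower: MYBL2 (-0.69, adjusted p = 0.0119), CCNA2 (-0.62, adjusted p = 0.00772), FOXM1 (-0.59, adjusted p = 0.0324) and UBE2C (-0.58, adjusted p = 0.0263). The shares called, 4 of 47 and 4 of 24, compare with 11.0% of all genes. E2F5, a repressor of the family, was the only one of 10 E2F and DP genes that passed, at -0.84 (SE 0.16, adjusted p = 0.000288). In the double-separator libraries CDC45, POLA2, RAD51AP1, MYBL2, UBE2C and FOXM1 had positive values, from 0.03 to 0.45, whereas in the other libraries they lay between -0.69 and -1.11.

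Within the 46 CDKN2A-high tumors, where CDKN2A itself spans 7.48 to 121.7 CPM, most genes of these lists had a slope on its level of the opposite sign, and 6 E2F targets and 1 gene of mitosis passed the test. The slope of each gene on log2(CPM + 2) of CDKN2A, in log2 units per doubling of that quantity, differed from 0 for 503 of 13421 genes (3.75%), 271 (2.02%) with a positive and 232 (1.73%) with a negative slope. All 47 E2F targets had a positive slope, with a median of 0.26 against 0.01 over all genes, and 6 passed the test: FEN1 (0.40, SE 0.10, adjusted p = 0.0153), which processes Okazaki fragments, the polymerase subunits POLD1 (0.35, SE 0.08, adjusted p = 0.0115), POLA1 (0.27, adjusted p = 0.0343) and POLA2 (0.26, adjusted p = 0.0495), the histone chaperone CHAF1B (0.30, adjusted p = 0.0261) and the checkpoint kinase CHEK1 (0.31, adjusted p = 0.0345). Of the genes of mitosis, 23 of 24 had a positive slope and AURKB passed, at 0.36 (SE 0.08, adjusted p = 0.0126). Of the E2F and DP genes, 9 of 10 were positive and 4 passed, namely E2F1 (0.38, SE 0.10, adjusted p = 0.0291), TFDP1 (0.30, adjusted p = 0.0309), E2F3 (0.26, adjusted p = 0.0480) and TFDP2 (0.23, adjusted p = 0.0483).

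RB1 moved the other way. Its slope within the CDKN2A-high tumors was -0.35 (SE 0.09, adjusted p = 0.0153), -0.34 within COTC021 and -0.40 within COTC022. In the 17 tumors with at least 40 CPM of CDKN2A, RB1 ranged from 3.24 to 67.0 CPM with a median of 25.7, and in the other 29 from 27.1 to 74.6 CPM with a median of 42.8. The ranges overlapped, and RB1 also fell as low as 17.9 CPM in CDKN2A-low tumors and 19.9 CPM in the tumors between. Levels under 27.1 CPM, the lowest of the 29, were therefore not particular to the tumors with most CDKN2A. CCNE1 had a slope of 0.29 (SE 0.07, adjusted p = 0.0105), with a median of 12.5 CPM in the 17 and 8.10 CPM in the 29 tumors. The slopes of CCND1 (-0.34, SE 0.13, adjusted p = 0.109), CDK4 (0.14, SE 0.06, adjusted p = 0.185) and MDM2 (-0.19, SE 0.09, adjusted p = 0.191) did not pass. Of 19 Polycomb genes and other repressors, which act on the CDKN2A locus in many cells, 12 had a negative slope, the median was -0.04, and the 2 that passed were positive, CBX2 at 0.50 (SE 0.10, adjusted p = 0.00426) and SUZ12 at 0.23 (SE 0.06, adjusted p = 0.0227).

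A few markers of other cells had a slope on CDKN2A in the same tumors, 2 of 6 for osteoclasts, 2 of 8 for macrophages and 1 of 5 for leukocytes, where 3.75% of all genes passed. All 6 tested osteoclast markers had a negative slope, with a median of -0.93, and ACP5 (-0.998, adjusted p = 0.0291) and CTSK (-0.64, adjusted p = 0.0352) passed. Of 8 macrophage markers, 6 had a negative slope and C1QB and MRC1 a positive one, and CSF1R (-0.45, adjusted p = 0.0227) and CD68 (-0.67, adjusted p = 0.0392) passed, as did LAPTM5 (-0.43, adjusted p = 0.0113) of the 5 leukocyte markers, all negative. The summed osteoclast markers had a median of 2261 CPM (103.5 to 16206) in the 17 tumors with most CDKN2A and 6428 CPM (594.6 to 23491) in the other 29, and the summed macrophage markers 526.6 CPM (184.3 to 1852) and 1223 CPM (145.5 to 2708). None of the listed macrophage, osteoclast or leukocyte markers had a median of 0. Other lists had slopes of 1 sign without a marker that passed (0 by limma for each). All 8 chondrocyte markers were positive, with a median of 0.79 and summed levels of 798.4 CPM in the 17 and 346.5 CPM in the 29 tumors, whereas their median slope in the 94 tumors between the groups was -1.08. All 7 muscle markers were negative, with a median of -0.86 and summed levels of 10.4 and 62.3 CPM, and so were all 6 endothelial markers, with a median of -0.19. The part of these cells in the slopes of RB1 and the E2F targets was not tested.

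In the 94 tumors between the groups most of these slopes were negative. There, 43 of 47 E2F targets and 22 of 24 genes of mitosis had a negative slope, with medians of -0.22 and -0.24. Over all genes 6512 of 13421 slopes were negative there, and the median was 0.01. POLE2 (-0.56, adjusted p = 0.0327), MCM4 (-0.35, adjusted p = 0.0380), RAD51AP1 (-0.67, adjusted p = 0.0117) and MYBL2 (-0.57, adjusted p = 0.0220) passed. These calls, 3 of 47 and 1 of 24, are no larger a share than the 820 of 13421 genes (6.11%) called in the same tumors, or near it. In these tumors RB1 had a slope of 0.18 (adjusted p = 0.205) and CCNE1 one of -0.02 (adjusted p = 0.927). MKI67, a marker of cycling cells, had medians of 165.8 CPM in CDKN2A-low tumors, 112.6 CPM in the 29 CDKN2A-high tumors under 40 CPM and 161.0 CPM in the 17 above. The difference between the slopes of the high tumors and of those between was not tested. CDKN2A was at most 7.43 CPM in the tumors between, so a doubling of CPM + 2 is a larger change of CDKN2A there. The sizes of the 2 sets of slopes are therefore not on the same scale.

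Limits of the slopes are their dependence on the sample. Without the 2 libraries farthest from the median of CDKN2A, 602 genes were called, whereas with ranks of CDKN2A there were 242, within COTC021 11 and within COTC022 0. Within the GS-1 PP dogs and within the libraries without a doubled separator, 92 each were called. With ranks the slopes of E2F1, TFDP1, E2F3, TFDP2, CHAF1B, POLA1, POLA2, ACP5, CTSK and CD68 no longer passed, with adjusted p-values from 0.0528 (POLA1) to 0.112 (POLA2).

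**Figure D3:**
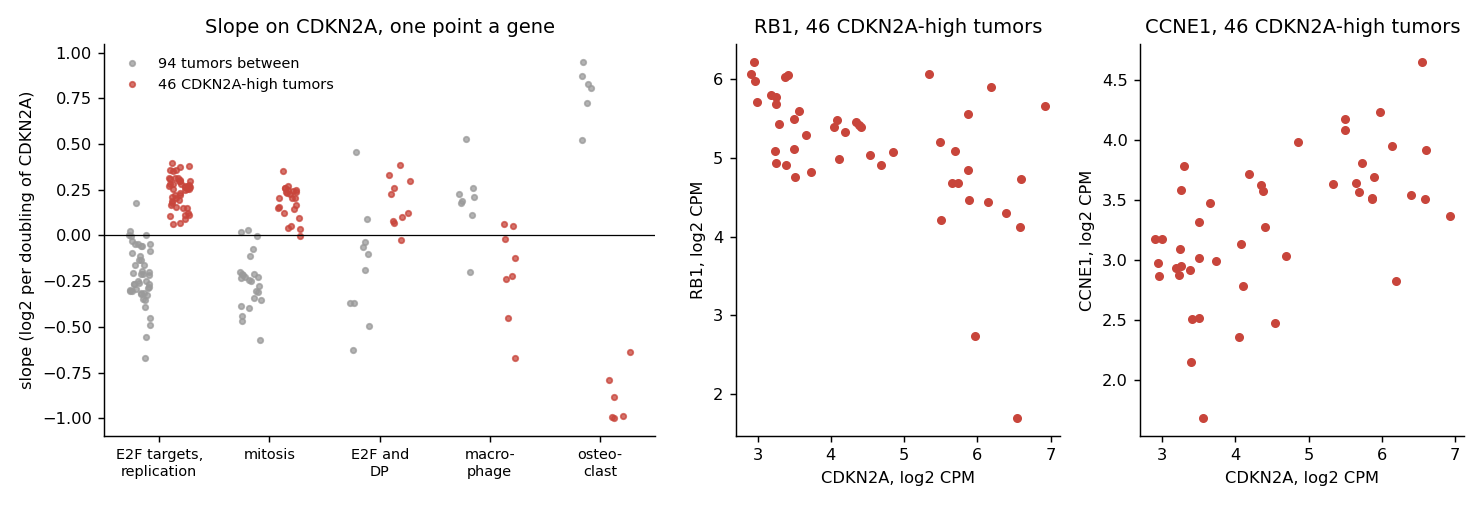
Left, slope on CDKN2A (log2 units per doubling of CPM + 2) of the tested members of 5 gene lists, 1 point per gene. Gray points are the 94 tumors between the groups and red points the 46 CDKN2A-high tumors. Middle and right, RB1 and CCNE1 against CDKN2A (log2 CPM) in the CDKN2A-high tumors. Their slopes on log2(CPM + 2) of CDKN2A were -0.35 and 0.29. Most E2F targets and mitosis genes and all 6 osteoclast markers lie on opposite sides of 0 in the 2 sets of tumors.

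In the limma fit, the largest differences between the groups were in genes lower in CDKN2A-high tumors. IGF2BP1 (chromosome 9, 25149583 to 25192753), an RNA-binding protein of fetal tissues that stabilizes growth-promoting transcripts, ranged from 0 to 126.0 CPM with a median of 46.4 in CDKN2A-low tumors, and from 0 to 99.4 CPM with a median of 0.692 in CDKN2A-high tumors. It was at 10 CPM or more in 39 low and 8 high tumors and under 1 CPM in 3 low and 27 high tumors. Its log2 fold change was -4.64 (SE 0.84, adjusted p = 0.000110). The related IGF2BP3 was also lower, at -1.29 (SE 0.26, adjusted p = 0.000662). So was PLAG1, a zinc finger activator of IGF2, at -1.86 (SE 0.46, adjusted p = 0.00495), and HMGA2, a chromatin protein of embryonic cells, at -1.48 (SE 0.50, adjusted p = 0.0403). H19 (chromosome 18, 46659811 to 46662515), an imprinted noncoding RNA, had medians of 27.8 CPM in low and 1.19 CPM in high tumors and a log2 fold change of -3.03 (SE 0.84, adjusted p = 0.0123). IGF2, the imprinted growth factor gene that neighbors H19 at 46751952 to 46766988, differed in the other direction, with medians of 2.36 and 8.07 CPM and 1.42 (SE 0.49, adjusted p = 0.0460). Of 12 tested oncofetal and imprinted genes, 5 were lower and 1 higher, with a median of -1.18. Over all genes 11.0% were called, but this list was written after values were seen. Its share is therefore no result about such genes as a group. H19 had -0.01 in the double-separator libraries, and over all libraries -1.40 by edgeR (adjusted p = 0.152).

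Several genes normally confined to germ cells were lower in CDKN2A-high tumors. TCFL5 (chromosome 24, 47518794 to 47534467), a spermatocyte transcription factor, had the smallest p of any gene off chromosome 11. It ranged from 0.540 to 30.5 CPM with a median of 12.3 in CDKN2A-low tumors and from 0.520 to 16.9 CPM with a median of 2.35 in CDKN2A-high tumors, and 45 of 46 low tumors exceeded the median of the high group. Its log2 fold change was -2.31 (SE 0.25, adjusted p = 2.12e-11), -2.13 within COTC021 and -2.51 within COTC022. RBM44, an RNA-binding protein of germ cell bridges, had medians of 13.6 and 0.714 CPM and -3.18 (SE 0.52, adjusted p = 1.56e-05). PRSS50, a testis protease, had -3.44 (SE 0.90, adjusted p = 0.00752), HORMAD1, of the meiotic chromosome axis, had -2.25 (SE 0.73, adjusted p = 0.0306), and MEIOB, of meiotic recombination, had -1.40 (SE 0.21, adjusted p = 2.45e-06). By edgeR, PRSS50 stood at -1.31 (adjusted p = 0.134) and HORMAD1 at -0.66 (adjusted p = 0.414), neither of them called. Of 42 germ cell genes listed after values were seen, 16 passed the filter, 6 were lower and 1, HSF2BP, was higher at 0.44 (adjusted p = 0.0143). Over all genes 11.0% were called, but members were listed with values known, so this share is no result about germ cell genes as a group. Of 19 tested genes of retinoid handling, on a list also written after values were seen, 15 were not called and the median was -0.09. The same limit holds for this list. CRABP1 (-2.28, adjusted p = 0.0264), CRABP2 (-1.98, adjusted p = 2.51e-05) and the retinol receptor STRA6 (-1.86, adjusted p = 0.00710) were lower, and the alcohol dehydrogenase ADH4 (1.49, adjusted p = 6.11e-05) was higher.

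The remaining named genes on the lower side, chosen by size among called genes with the same direction in both trials, were NETO1, TCF24, SLC13A5, C1QTNF3, ZFP69B, DPEP1, ALX4 and CPXM1, with log2 fold changes from -2.67 to -2.16. By edgeR the same 8 lay between -2.05 and -0.60, and C1QTNF3 (-0.60, adjusted p = 0.526), TCF24 (-1.14, adjusted p = 0.183) and NETO1 (-1.21, adjusted p = 0.0685) were not called. SLC13A5, the citrate carrier of osteoblasts and liver, had medians of 17.4 CPM in low and 1.31 CPM in high tumors. ALX4, a homeobox factor of limb and skull development, had 4.33 and 0.618 CPM. CPXM1, a secreted carboxypeptidase-like protein, had 91.8 and 17.1 CPM. ZFP69B was 1 of 46 called among 277 genes with zinc finger symbols (16.6%), where 11.0% of all genes were called. Of the 46, 29 were lower and 17 higher, and the median over the 277 was 0.00, so that the direction was not shared by the group. This list too was chosen after values were seen, so its share is no result about such genes as a group. ZNF432 had the smallest p among the zinc finger symbols, at -1.63 (SE 0.19, adjusted p = 3.03e-10).

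In the limma fit, genes higher in CDKN2A-high tumors changed less. The other models did not share this, as edgeR called 32 higher and 28 lower genes above 3-fold and DESeq2 31 and 27. PLN (chromosome 1, 59137737 to 59149128), phospholamban, an inhibitor of the calcium pump of muscle, ranged from 0.0557 to 232.0 CPM with a median of 13.0 in CDKN2A-high and from 0 to 375.4 CPM with a median of 1.12 in CDKN2A-low tumors. Its log2 fold change was 2.89 (SE 0.71, adjusted p = 0.00431), and 29 high and 8 low tumors were at 10 CPM or more. Of the 7 muscle markers 0 were called, with summed levels from 0.891 to 4557 CPM in CDKN2A-high tumors and from 0.895 to 57573 CPM in CDKN2A-low tumors, and their part in the difference of PLN was not tested. FST, follistatin, a secreted antagonist of activin, had medians of 11.8 and 2.45 CPM and 2.13 (SE 0.56, adjusted p = 0.00772). NPY, a neuropeptide also made by osteoblasts, had 6.74 and 1.90 CPM and 2.30 (SE 0.55, adjusted p = 0.00379). AGTR1, the angiotensin receptor, had 14.0 and 5.26 CPM and 1.73 (SE 0.37, adjusted p = 0.00118), and LEPR, the leptin receptor, had 44.6 and 10.4 CPM and 1.71 (SE 0.46, adjusted p = 0.00859). The others were C1H19orf33, PPFIA2, SPHKAP, C7, CCDC3, RNASE4, FAM180A, VEPH1 and FAM149A, from 1.63 to 2.03. MBNL1, a splicing regulator, had a smaller but more regular difference, from 104.2 to 386.0 CPM with a median of 215.3 in high and from 72.0 to 244.6 CPM with a median of 123.1 in low tumors (0.61, SE 0.09, adjusted p = 1.65e-06). Every named gene of both sides overlapped between the groups, MTAP included.

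**Figure D4:**
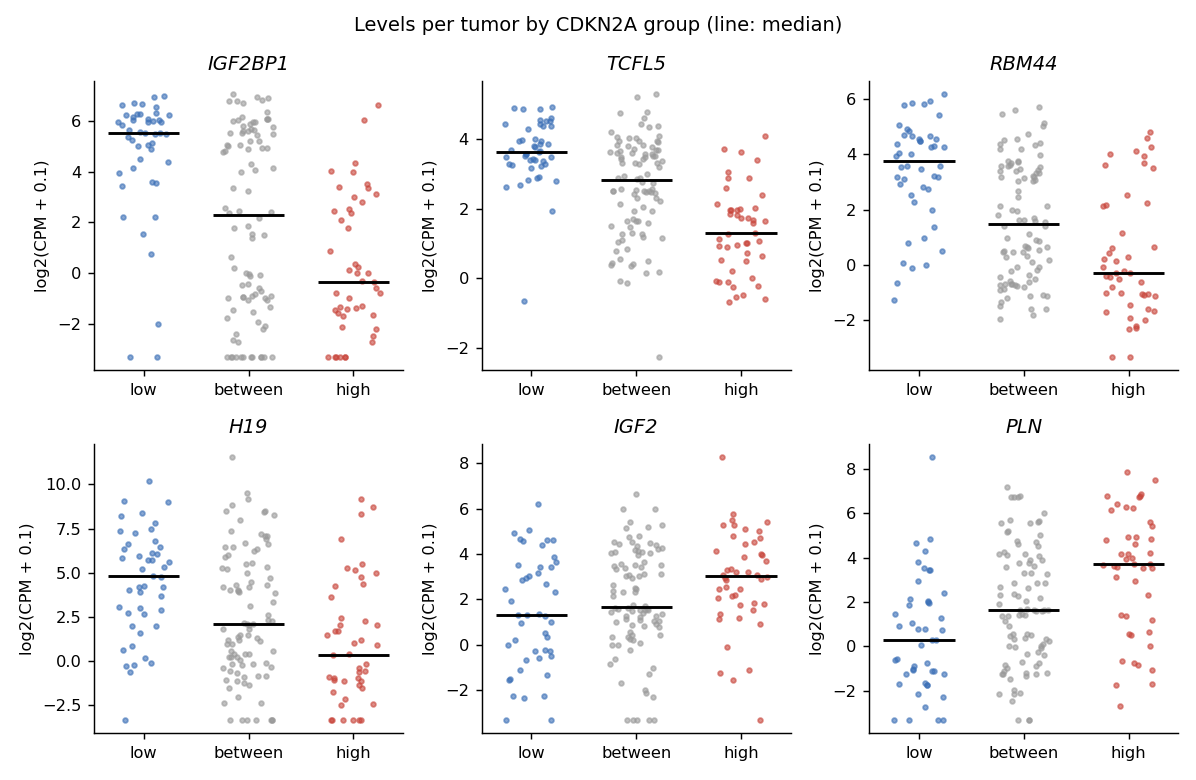
Levels of 6 genes as log2(CPM + 0.1), 1 point per tumor, in CDKN2A-low, between and CDKN2A-high tumors, with a line at each median. The medians of IGF2BP1, TCFL5, RBM44 and H19 fall from low to high and those of IGF2 and PLN rise, and the groups overlap for each gene.

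Other lists held called genes in both directions, to be read against the 11.0% called over all genes. Of 14 genes around MTAP in methionine salvage, polyamine synthesis and the PRMT5 complex, 2 were higher and 3 lower. MTAP and RIOK1 (0.34, adjusted p = 0.0143), an adaptor of PRMT5, were higher, and the methyltransferase PRMT5 (-0.34, adjusted p = 0.0241), its partner WDR77 (-0.40, adjusted p = 0.00320) and spermidine synthase SRM (-0.60, adjusted p = 0.00660) were lower. Of 19 Polycomb genes and locus repressors, EZH1 (0.48, adjusted p = 0.00998), CBX7 (0.61, adjusted p = 0.0200) and TBX3 (0.46, adjusted p = 0.0439) were higher and BMI1 (-0.45, adjusted p = 0.0288) was lower. Of 20 genes recurrently altered in osteosarcoma 2 passed, a share near that of all genes, as CCNE1 was higher and the histone methyltransferase SETD2 (-0.55, adjusted p = 0.00437) lower. Of 14 tested genes listed for the senescence secretory program, only HMGA2 passed, which is the chromatin protein named above and not a secreted factor. Of the ISA4 signature, which the study derived from these samples and which is therefore no independent evidence, 0 of 39 genes were higher and 6 lower, with a median of -0.49. This list was chosen after values were seen, and the 6 include IGF2BP1, HORMAD1 and SLC13A5, already named above.

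Few cell type markers passed the test between the groups, 2 of 13 for osteoblasts, 1 of 6 for endothelial cells and 1 of 5 for T and NK cells, shares not far from the 11.0% of all genes. Of 13 osteoblast markers, BGLAP (1.38, SE 0.41, adjusted p = 0.0193), osteocalcin of mature osteoblasts, and DLX5 (0.62, SE 0.19, adjusted p = 0.0234) were higher, with a median over the list of -0.06. TEK was the 1 called gene of 6 endothelial markers, and CD3E, of the T cell receptor complex, the 1 called of 5 T and NK cell markers, at -0.81 (SE 0.26, adjusted p = 0.0300), although its medians of 2.37 CPM in high and 2.32 CPM in low tumors hardly differed and the value was 0.04 without the GS-1 cluster as covariate. Of the markers of chondrocytes, fibroblasts, leukocytes, macrophages, neutrophils, osteoclasts, muscle, B and plasma cells, adipocytes and epithelium, 0 passed the test between the groups by limma. This does not show that they were alike, since the median log2 fold change was -0.56 over 8 chondrocyte markers, 7 of them negative, and 0.72 over 7 muscle markers. All 5 T and NK cell markers were negative, with a median of -0.42, in the fit with the GS-1 cluster as covariate. Whether those besides CD3E keep this sign without that covariate is not given here.

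Limits to the calls were the size of the subsets and the model. The test called 184 genes within COTC021, 147 within COTC022, 982 within PP dogs, 12 within FP dogs and 2 within the double-separator libraries. With edgeR's quasi-likelihood test, IGF2BP1 stood at -2.81 (adjusted p = 5.42e-05), and SPHKAP, C7, PRSS50, H19, NETO1, TCF24, C1QTNF3, HORMAD1, CCNE1, BMI1, TBX3, HMGA2, CD3E and IGF2 were no longer called. DESeq2 lost the same calls except that of HMGA2, which was at -0.40 by edgeR and -2.05 by DESeq2.

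For outcome, 46 CDKN2A-high and 46 CDKN2A-low dogs were compared, with the Cox model stratified by trial and the GS-1 cluster as covariate. Median DFI was 212 days (95% interval 132 to 321) in CDKN2A-high and 136 days (86 to 224) in CDKN2A-low dogs, with 35 and 36 events. The hazard ratio for high against low was 0.721 (95% interval 0.446 to 1.17, p = 0.184), and the log-rank test stratified by trial gave p = 0.112. Median OSv was 386 days (261 to 775) and 190 days (148 to 320), with 29 and 33 events. The hazard ratio was 0.585 (95% interval 0.349 to 0.979, p = 0.0413), the log-rank test gave p = 0.0328, and permutation of the CDKN2A group within trial gave p = 0.0352 (two-sided, 100000 permutations). Adjusted over the 2 outcomes, the OSv p-values were 0.0826, 0.0656 and 0.0704, and none passed 0.05. Over all 186 dogs OSv had 124 events, and dogs without an event were treated as censored. The study counts more dogs as dead than had an event here, so some deaths were treated as censored. The OSv medians and hazard ratios are therefore not those of death from any cause. Which deaths were censored was not checked.

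The OSv ratio varied with the choice of dogs. Within COTC021 the hazard ratio was 0.738 (p = 0.397) and within COTC022 0.447 (p = 0.0417), and the interaction test of the 2 ratios did not pass (p = 0.425). COTC021 held 93 of the 186 dogs, and the study lists 93 dogs in each treatment arm. Whether trial and arm coincide was not checked, so a split by trial cannot be told apart here from a split by treatment. With the highest 62 against the lowest 62 dogs the OSv hazard ratio was 0.669 (p = 0.0721), with the upper 93 against the lower 93 it was 0.715 (p = 0.0640), and with CDKN2A as a continuous term over all 186 dogs it was 0.907 per doubling of CPM + 2 (p = 0.117). FP dogs numbered 13 in the high and 7 in the low group, and among the PP dogs the ratio was 0.606 (p = 0.0979).

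**Figure D5:**
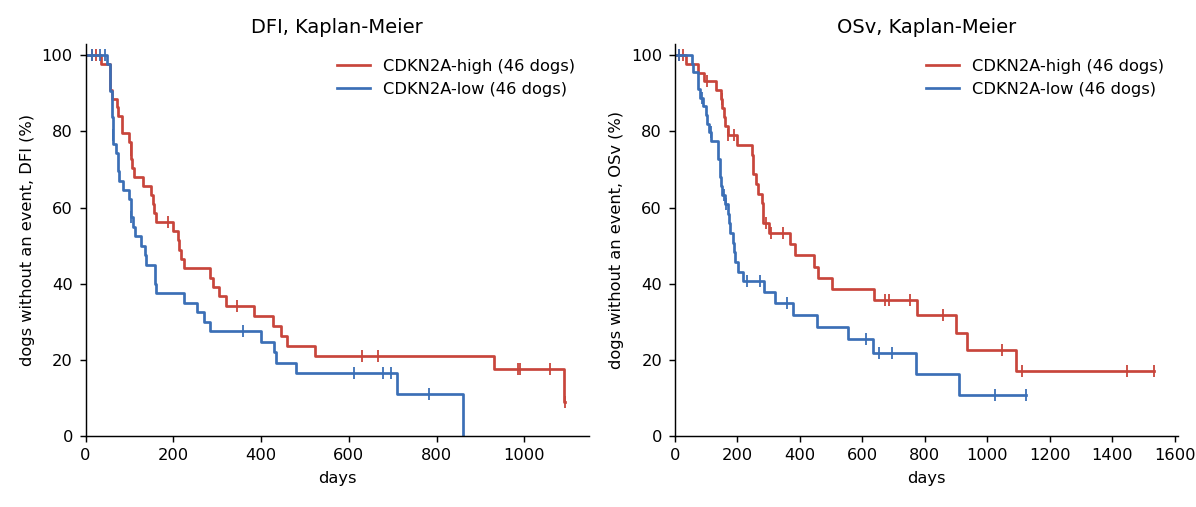
Kaplan-Meier curves of DFI (left) and OSv (right), percent of dogs without an event against days, for the 46 CDKN2A-high (red) and 46 CDKN2A-low (blue) dogs, with ticks for censored dogs. The median lies at 212 against 136 days for DFI and at 386 against 190 days for OSv.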

How the data were processed

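Libraries were made with a stranded mRNA kit and sequenced in read pairs. The authors aligned reads to build GSD_1.0, quantified genes with RSEM 1.3.1 after STAR 2.7.0f (versions from the submitters' processing notes), and deposited expected counts per gene, not normalized. Of these values, 3.07% were not whole, and they were rounded. Of 198 columns, 186 belong to dogs with a listed GS-1 cluster, and 12 were not used. Gene positions came from RefSeq annotation of the same build, in which 37952 of 37952 symbols matched. Depth per library limits the precision, and 10 counts were the minimum of the filter.

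Low genes were dropped over 186 libraries with the filterByExpr function of edgeR 4.0.16, with large.n at 5, min.prop at 0.5 and a count minimum of 10. TMM scaling was followed by the voom method of limma 3.58.1 (R 4.3.3), with trial and GS-1 cluster as covariates. Adjusted p-values are Benjamini-Hochberg values over 13421 genes, two-sided, called under 0.05. CPM are counts over the library total, not TMM-scaled. Intervals are at 95%. Every dog is 1 sample. Cox models, log-rank tests and Kaplan-Meier medians used survival 3.8.3, on follow-up the study lists for each dog. Figures used matplotlib 3.10.9. On simulated data for the comparison of 13422 genes, the fit recovered 59 of 100 changes of 1.5-fold and 93 of 100 of 3-fold, with 10 wrong calls. For the slopes within CDKN2A-high tumors it recovered 40 of 100 slopes of 0.3 and 85 of 100 of 0.6, with 4 wrong calls.

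The members and lists were chosen with earlier results of these data known. Named genes are the 15 called genes with the largest difference in each direction that carry a gene symbol and have the same direction in each trial, the members of the listed gene sets, and called genes within 5 Mb of CDKN2A. IGF2, IGF2BP3, PLAG1, MEIOB, HSF2BP, CRABP2, STRA6, ADH4, MBNL1, ZNF432 and MKI67's place beside the slopes were chosen after their values were seen, as was the slope analysis itself. Alternatives were edgeR's quasi-likelihood test, DESeq2 1.42.0, other covariates, other choices of dogs and subsets. Results for 1 gene and for the list of its targets are not reported here.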

Additional observations from a re-analysis of the deposited data

How the results depend on the processing

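No paired analysis was possible because each dog is 1 sample with its own number. Of the genes called (1483 in the fit as reported), there were 2921 with the highest against the lowest 62 dogs, 3027 with the upper against the lower 93, 184 within COTC021, 147 within COTC022, 982 within PP dogs, 12 within FP dogs, 2 within the double-separator libraries and 58 with a fold above 3 in addition, fewer dogs or a stricter rule in the smaller counts. The other alternatives (edgeR, DESeq2, size factors, no filter, covariates, TMM-scaled or within-trial choice of dogs, CDKN2A as a continuous term, other libraries) gave between 1280 and 2004. The 6 neighbors of CDKN2A called became 11 with the upper against the lower 93 dogs, 3 within COTC021, 2 within COTC022, 2 within the double-separator libraries and 1 within FP dogs. The 26 listed genes called became 45 with DESeq2, 40 with TMM-scaled CDKN2A, 65 with the highest and lowest 62, 77 with the upper and lower 93, 40 with the choice of dogs within trial, 3 within COTC021, 5 within COTC022, 1 within the double-separator libraries, 52 within the other libraries and 0 within FP dogs. The OSv hazard ratio, whose p of 0.0413 did not pass once adjusted over the 2 outcomes, had an unadjusted p above 0.05 at 0.669 with the highest and lowest 62, 0.715 with the upper and lower 93, 0.907 as a continuous term, 0.653 with TMM-scaled CDKN2A, 0.629 with the choice within trial, 0.738 within COTC021, 0.606 within PP dogs, 0.544 within FP dogs, and, in subsets chosen after seeing the data, 0.339 within the double-separator libraries and 0.684 within the others. DFI was not called under any alternative. The odds ratio of COTC021, 1.299, was 0.879 with the highest and lowest 62 and 0.740 with the upper and lower 93. The 503 genes with a slope on CDKN2A became 242 with ranks, 11 within COTC021, 0 by limma within COTC022 (1041 at an unadjusted p under 0.05), 92 within PP dogs, 0 by limma within the double-separator libraries (1284 at an unadjusted p under 0.05) and 92 within the other libraries, and 820 genes had a slope in the 94 tumors between. These alternatives were chosen after seeing the data. For single genes, 10 of 1368 values changed direction. Within the double-separator libraries these were CDC45 at 0.14, POLA2 at 0.12, RAD51AP1 at 0.0272, MYBL2 at 0.18, UBE2C at 0.0304, FOXM1 at 0.45, RB1 at 0.24 and CBX7 at -0.0042. Within FP dogs TBX3 was at -0.0208, and with trial as the only covariate CD3E was at 0.0373. For these the cause was not tested. Of the 22 listed genes with a slope, 0 changed direction, but 22 lost their call within COTC021, within COTC022 and within the double-separator libraries, 16 within PP dogs, 17 within the other libraries, 10 with ranks and 1, TFDP2, without the 2 farthest libraries (adjusted p = 0.0522). Depth limits the CDKN2A-low group, in which 37 of 46 libraries had 3 counts or fewer, so groups defined by lower cuts were not separable.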

Other observations

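On some chromosomes the called genes lay mostly in 1 direction, and those named here were picked for this. Over all 13421 genes, 698 (5.20%) were higher and 785 (5.85%) lower. Chromosome 18 held 4 higher and 79 lower of 441 tested, a median of -0.16 on the log2 scale. Between 50 and 60 Mb of it 0 were higher and 52 lower of 195. On chromosome 22, where RB1 lies at 3028586 to 3174226, 1 was higher and 25 were lower of 146 tested. Chromosome 27 held 2 higher and 49 lower of 318 tested, and chromosome 3 held 4 higher and 54 lower of 367. In the other direction, chromosome 35 held 28 higher and 3 lower of 129 tested, chromosome 33 held 21 higher and 0 lower of 155, and chromosome 36 held 16 higher and 1 lower of 117. Others were mixed, such as chromosome 10 with 31 higher and 22 lower of 476 and chromosome 26 with 14 and 13 of 340. Genes on a chromosome are not independent of each other, and no test of these counts was made.

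Outside the gene lists, the smallest p-values for a positive slope on CDKN2A within the CDKN2A-high tumors were those of ADAM11 (0.67, adjusted p = 0.00189), DBR1 (0.25, adjusted p = 0.00189), an enzyme that opens intron lariats, FAM171A2 (0.49, adjusted p = 0.00220) and TOPBP1 (0.28, adjusted p = 0.00338), a replication checkpoint protein. Those for a negative slope among genes with a symbol were HVCN1 (-0.30, adjusted p = 0.00355), a proton channel of immune cells, PLEKHO2 (-0.33, adjusted p = 0.00355), ABHD2 (-0.42, adjusted p = 0.00360) and NPC2 (-0.44, adjusted p = 0.00410), a lysosomal cholesterol carrier. These genes were chosen after their values were seen. ADAM11 had a negative slope in the 94 tumors between the groups (-0.47, adjusted p = 0.0393) and HVCN1 a positive one (0.52, adjusted p = 0.00121).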
